A study of Mus musculus with 47 samples.

Results

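The genes described here are Prm1, Prm2 and Prm3, which are named as protamines, and Tnp1 and Tnp2, the transition proteins. They were taken by name, and all 5 were among the 23416 genes listed for each of the 10 libraries. RNA had been sequenced from the liver and from motile cauda epididymal spermatozoa of males 8 to 12 weeks old. Ctrl-F1 males were obtained by intracytoplasmic injection of testicular sperm (ICSI) from wild-type males, and KO-F1 males by ICSI from Scml2-KO males (Scml2-/y), which lack an X-linked germline Polycomb gene. Both F1 groups carry the background label BDF2. KO-F2 males, labelled BDF3, were sired by KO-F1 males that were housed with C57BL/6 females, and no Ctrl-F2 group was analysed here. Because the deleted gene is X-linked, sons of Scml2-KO males carry their mother's intact copy. Each group had 2 libraries: liver and spermatozoa for Ctrl-F1 and KO-F1, and spermatozoa for KO-F2.

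During spermiogenesis the nucleosomes of the spermatid are taken apart. Transition proteins occupy the DNA for a short time and are then replaced by protamines, small arginine-rich proteins that compact the genome of the sperm head. The mRNAs of these proteins are transcribed in round spermatids, stored in a repressed state and translated later, when transcription has stopped, so the mRNA found in mature spermatozoa is a remnant of the spermatid. PRM1 is made in its final form and PRM2 as a precursor that is cut. Prm3 lies between Prm2 and Tnp2, and its product is acidic and not a DNA-packaging protamine.

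In the RefSeq annotation of GRCm38.p6 all 5 genes are on the minus strand. Prm1 (chr16:10796332-10796823), Prm2 (chr16:10791377-10792105), Prm3 (chr16:10790508-10790914) and Tnp2 (chr16:10787935-10788655) form a cluster, and Tnp1 (chr1:73015074-73015899) lies apart. Their transcripts are 400, 624, 407, 550 and 427 bases long for Prm1, Prm2, Prm3, Tnp2 and Tnp1. The 150 bases before each annotated start are shown from 5′ to 3′ as RefSeq gives them on GRCm38.p6, because the 5 genes stood together in one comparison and apart in the others. Capitals mark matches, on either strand, to TGANNTCA and to the shorter strings TGAGGTC and likewise AGGTCA, as well as to TATAA and the related TATATA. These letters were chosen after the sequences had been seen.
Prm1, chr16:10796824-10796973, minus strand: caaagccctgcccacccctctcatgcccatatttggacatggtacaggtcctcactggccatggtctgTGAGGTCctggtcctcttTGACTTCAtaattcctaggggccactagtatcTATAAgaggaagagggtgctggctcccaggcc
Prm2, chr16:10792106-10792255, minus strand: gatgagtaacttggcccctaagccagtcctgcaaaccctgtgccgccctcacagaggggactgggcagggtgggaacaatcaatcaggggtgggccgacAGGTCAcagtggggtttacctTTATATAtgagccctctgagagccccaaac
Prm3, chr16:10790915-10791064, minus strand: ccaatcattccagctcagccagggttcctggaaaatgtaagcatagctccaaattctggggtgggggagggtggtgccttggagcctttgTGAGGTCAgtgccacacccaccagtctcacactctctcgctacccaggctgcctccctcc
Tnp2, chr16:10788656-10788805, minus strand: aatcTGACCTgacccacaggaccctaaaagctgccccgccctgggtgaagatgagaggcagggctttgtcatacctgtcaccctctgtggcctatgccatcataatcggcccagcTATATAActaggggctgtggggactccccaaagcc
Tnp1, chr1:73015900-73016049, minus strand: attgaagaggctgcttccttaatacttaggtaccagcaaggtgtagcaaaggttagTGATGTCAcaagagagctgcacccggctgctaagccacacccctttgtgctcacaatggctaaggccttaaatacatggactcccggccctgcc

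The letters TGANNTCA, the ends of the palindromic cAMP response element TGACGTCA, were found before Prm1 (TGACTTCA), Prm3 (TGAGGTCA) and Tnp1 (TGATGTCA), and in 8.37% of the 32851 windows of the same length in the RefSeq promoter table. The complete TGACGTCA occurred in 1.36% of all windows and in none of these 5. The letters TGAGGTC were shared by Prm1 and Prm3 (2.73% of all windows), and AGGTCA by Prm2, Prm3 and Tnp2 (8.58%). In Prm3 these matches overlap in the single stretch TGAGGTCA. TATAA was found before Prm1, Prm2 and Tnp2 (14.2% of all windows) and TATATA before Prm2 and Tnp2 (2.97%), between 24 and 35 bases from the start. Neither was present in the windows of Prm3 and Tnp1. These matches describe letters only.

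The sperm libraries were not equally deep, which bears on every value below. F1 sperm libraries held between 1503733 and 2778171 counts, and the KO-F2 sperm libraries 11462105 and 8384266. The ribosomal RNA gene Rn45s took between 3.52% and 28.7% of the counts of a sperm library. The 6 genes used as mature sperm markers took between 3.03% and 7.83% of each sperm library and at most 18 counts in a liver library. Scml2 itself had between 0 and 18 counts in each sperm library, too few to compare groups. Labels name a sequencing run for KO-F2 spermatozoa and none for F1 spermatozoa, so the run, the strain background, the depth and the generation cannot be told apart.

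Together the 5 genes took 7.34% and 4.04% of all counts in the Ctrl-F1 sperm libraries, 1.98% and 1.34% in KO-F1 and 8.56% and 7.53% in KO-F2. The 95% Wilson intervals, which cover counting error only, ran from 7.31% to 7.37% and from 4.01% to 4.07% in the Ctrl-F1 libraries, so the gap between these replicates was far larger than counting error. In liver the 5 genes had 0 counts in all 4 libraries. The floor of 3 counts in the shallowest liver library corresponds to 0.265 CPM (counts scaled to an equal library total). Against this floor, the sperm library with the lowest level held at least 32144-fold more of Prm2, 9023-fold more of Prm1, 6223-fold more of Tnp2, 2259-fold more of Prm3 and 1169-fold more of Tnp1.

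Prm2 had 110774 and 37887 counts in Ctrl-F1 spermatozoa, 30038 and 17733 in KO-F1, against 560900 and 334651 in KO-F2. Among all genes its rank was 2 and 5 in the Ctrl-F1 libraries, 7 and 9 in KO-F1 and 2 in both KO-F2 libraries. Prm1 had 35505 and 10935 counts in Ctrl-F1, 12632 and 4978 in KO-F1, against 252093 and 185741 in KO-F2. Its ranks were 7 and 8, 16 and 24, and 6 and 6. Both protamines were therefore among the 10 most counted genes in the Ctrl-F1 and KO-F2 libraries, and in KO-F1 this held for Prm2 alone.

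Tnp2 had 22746 and 8022 counts in Ctrl-F1, 8658 and 3433 in KO-F1, against 113407 and 74444 in KO-F2, with ranks of 8 and 14, 24 and 37, and 9 and 17. Tnp1 had 4548 and 1598 counts in Ctrl-F1, 1606 and 645 in KO-F1, against 44743 and 27593 in KO-F2. Its rank went over the widest range of the 5 genes, from 49 and 73 in Ctrl-F1 to 142 and 236 in KO-F1 and 27 and 37 in KO-F2. Prm3 had 4584 and 2324 counts in Ctrl-F1, 2072 and 1246 in KO-F1, against 9440 and 8941 in KO-F2. Its ranks of 48 and 50 in Ctrl-F1 stood above those in KO-F1 (96 and 105) and in KO-F2 (137 and 109), so that Prm3 was the only one of the 5 ranked lower in both KO-F2 libraries than in both Ctrl-F1 libraries.

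Scaled by TMM, which corrects the library total for composition, KO-F2 spermatozoa held 45327 ± 6368 CPM of Prm2 (SD, n = 2), 22527 ± 186 of Prm1, 9578 ± 703 of Tnp2, 3670 ± 431 of Tnp1 and 965 ± 178 of Prm3. In the same order, Ctrl-F1 held 39989 ± 11348, 12307 ± 4358, 8313 ± 2186, 1660 ± 441 and 1974 ± 18.5 CPM, and KO-F1 8300 ± 982, 2959 ± 1165, 2032 ± 792, 379 ± 144 and 577 ± 60.8 CPM. The spread between replicates depended on the scale. Prm3 in Ctrl-F1 was at 1717 ± 243 CPM by the library total, and Prm1 in KO-F2 at 25066 ± 1439 CPM when Rn45s and Lars2 were left out.

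**Figure D1:**
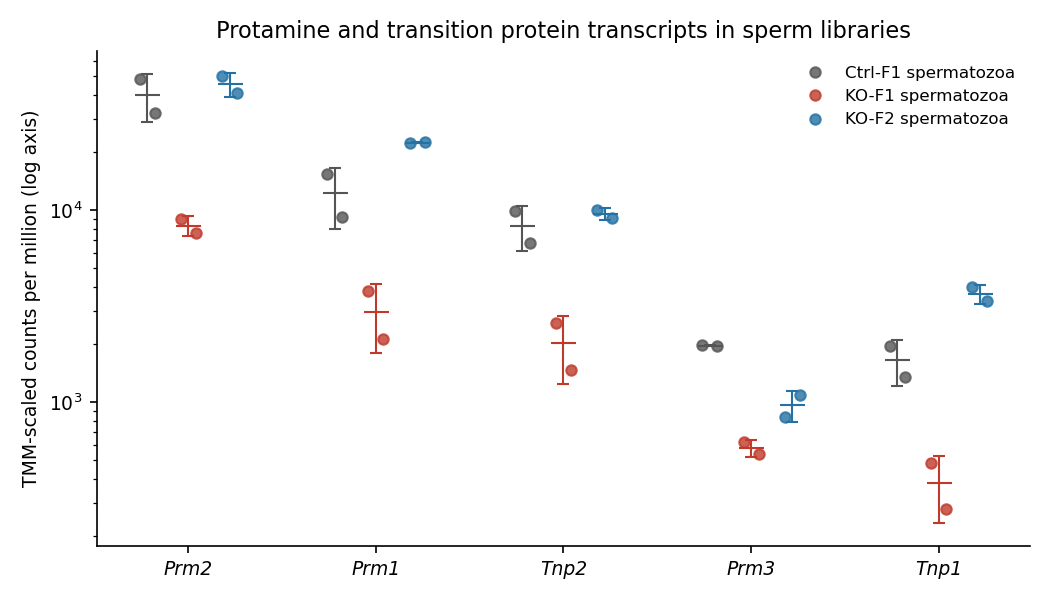
TMM-scaled CPM (log axis) of the 5 genes in the 6 sperm libraries, with points for libraries and bars for the group mean ± SD (n = 2). KO-F1 libraries lie below both other groups for every gene, while KO-F2 lies above Ctrl-F1 for Prm1 and Tnp1, below it for Prm3 and across it for Prm2 and Tnp2.

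KO-F1 spermatozoa were compared with Ctrl-F1 spermatozoa to ask whether loss of Scml2 in the father is followed by other transcript levels in the sperm of the sons. All 5 genes were lower in KO-F1, at log2 fold changes between -2.30 (Prm2, SE 0.54) and -1.80 (Prm3, SE 0.39), but none was called. The 5 values differed by about their standard errors, and their order was not the same without KO-F1 replicate 1 (Tnp1 -2.59, Prm2 -2.40) or without Ctrl-F1 replicate 1 (Prm1 -1.65, Prm3 -1.77). Calls required a change of 2-fold or more with a Benjamini-Hochberg adjusted p below 0.01 by the quasi-likelihood test of edgeR, in which the adjusted p was 0.140 for each of the 5. Of the 10785 genes tested, 0 (0%) were called, and 2105 had an unadjusted p under 0.05, all 5 genes among them. DESeq2 called 390 genes, with 5 of the 5 lower and none higher. Of all genes that it tested, it called 1.58% lower and 0.744% higher. Both KO-F1 libraries lay below both Ctrl-F1 libraries for 5 of the 5 genes, which held for 25.4% of all genes tested, while 28.7% lay above. The median of the 5 was -2.10, against 0.02 over all genes tested and -1.71 over the 65 late spermatid transcripts tested. Scaling to those late spermatid transcripts in place of TMM put the 5 genes between -0.55 and -0.09, with no call.

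KO-F2 spermatozoa were compared with Ctrl-F1 spermatozoa, which also serve as the controls of KO-F1, so that the 2 comparisons share samples. Here the 5 genes did not stand on 1 side of the controls. Tnp1 was at a log2 fold change of 1.15 (SE 0.38, adjusted p = 0.242 in edgeR) and Prm1 at 0.88 (SE 0.49, adjusted p = 0.477). Prm2 (0.19, SE 0.55) and Tnp2 (0.21, SE 0.43) differed from Ctrl-F1 by less than their standard errors. Prm3 was at -1.02 (SE 0.32, adjusted p = 0.236). None of the 5 was called, as was none of the 13149 genes tested (0%), although 1960 genes, Prm3 and Tnp1 among them, had an unadjusted p under 0.05, and DESeq2 called 277 genes (0.798% higher and 0.685% lower of those it tested) but 0 of the 5. A replicate block in edgeR called Tnp1 higher (adjusted p = 0.00224) and Prm3 lower (adjusted p = 0.00856), with 1.64% of all genes higher and 1.12% lower. The libraries blocked together share only a number. Both KO-F2 libraries lay above both Ctrl-F1 libraries for Prm1 and Tnp1 (27.8% of the 12005 genes compared) and below them for Prm3 (20.3%). The median of the 5 was 0.21, against 0.07 over all genes and 0.23 over 67 late spermatid transcripts. The signs of Prm2 and Tnp2 rested on Ctrl-F1 replicate 2, without which their log2 fold changes were -0.045 and -0.0045, and they were also negative (-0.083 and -0.055) with scaling to late spermatid transcripts.

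KO-F2 and KO-F1 spermatozoa were compared directly, which tests the difference between the 2 groups. Tnp1, the transition protein gene outside the cluster, rose and was the only one of the 5 to be called, at a log2 fold change of 3.46 (SE 0.44, adjusted p = 0.00911 in edgeR). Over all 13517 genes tested, 2.11% were called higher and 0.2% lower. The Tnp1 value equals the smallest adjusted p of the comparison, and with the library total alone as the scale it was 0.0150 and not called. With that scale edgeR called 0 genes in this comparison. The edgeR calls of listed genes given below for KO-F2 against KO-F1 were therefore lost with it. Prm1 (3.11, SE 0.49, adjusted p = 0.0110), Prm2 (2.63, SE 0.49, adjusted p = 0.0151) and Tnp2 (2.42, SE 0.45, adjusted p = 0.0150) missed the threshold in this edgeR test, and Prm3 stood at 0.91 (SE 0.33, adjusted p = 0.0876). DESeq2 called 4 of the 5 as higher, all but Prm3, and of all genes 7.48% as higher and 3.52% as lower. Both KO-F2 libraries lay above both KO-F1 libraries for 5 of the 5 genes, which held for 33.3% of all genes, while 34.3% lay below. The median of the 5 was 2.63, against 0.13 over all genes and 2.13 over the late spermatid transcripts. With scaling to the late spermatid transcripts Prm3 was lower in KO-F2 (-1.27), and the other 4 were between 0.18 (Tnp2) and 1.22 (Tnp1), with no call.

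**Figure D2:**
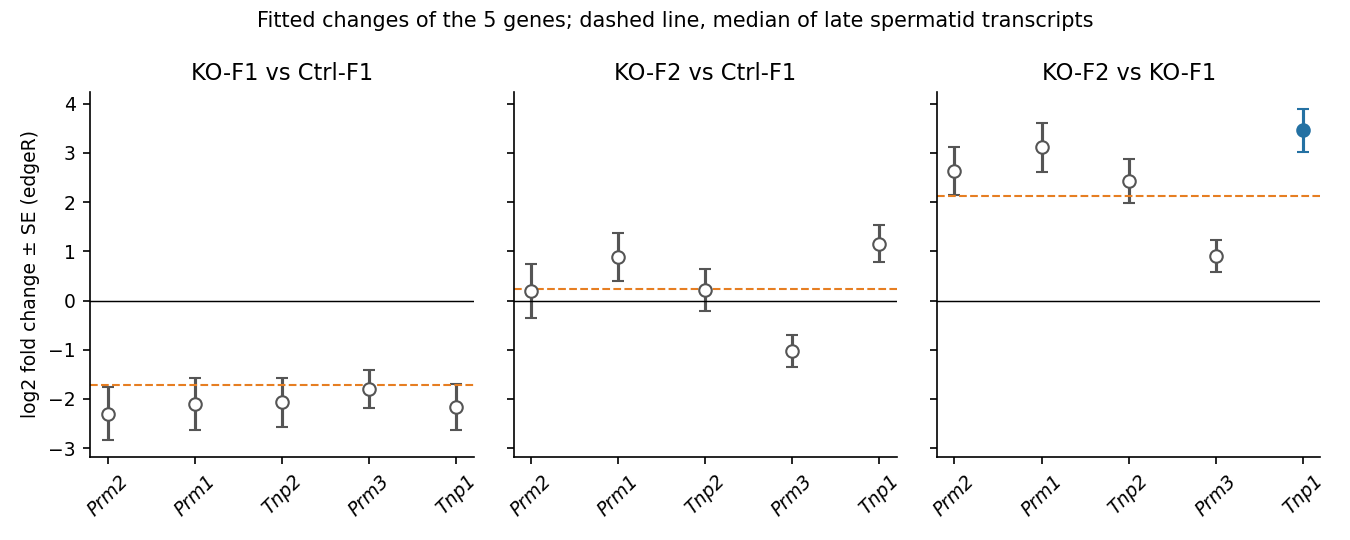
Log2 fold change ± SE of the 5 genes from edgeR in 3 comparisons of sperm groups (2 libraries each), with the called gene filled and the median of late spermatid transcripts dashed. The 5 genes lie between -2.30 and -1.80 in KO-F1 against Ctrl-F1, where the median is -1.71, whereas in both comparisons with KO-F2 Prm3 lies below it (-1.02 and 0.91) and Prm1 and Tnp1 above it.

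Ratios between 2 genes of the same library do not depend on how the libraries are scaled. The ratio of Tnp1 to Tnp2 was close between the replicates of each group. It was 0.200 and 0.199 in Ctrl-F1, 0.185 and 0.188 in KO-F1, against 0.395 and 0.371 in KO-F2. The KO-F2 ratio was 1.92 times that of Ctrl-F1 (log2 difference 0.94, pooled SD 0.05) and 2.05 times that of KO-F1 (1.03, pooled SD 0.05), while KO-F1 stood slightly below Ctrl-F1 (-0.10, pooled SD 0.01). An SD from 2 libraries a group can fall below counting error. Tnp1 had 645 counts in KO-F1 replicate 2, and the -0.10 was not set against counting error. Prm1 to Prm2, the ratio of the true protamines, was 0.321 and 0.289 in Ctrl-F1, 0.421 and 0.281 in KO-F1, against 0.449 and 0.555 in KO-F2. The KO-F1 libraries spanned the Ctrl-F1 values, and both KO-F2 libraries were above all F1 libraries, by 0.72 on the log2 scale against Ctrl-F1 (pooled SD 0.17). Per kilobase of transcript, the ratio of Prm1 to Prm2 was 0.500 and 0.450 in Ctrl-F1, 0.656 and 0.438 in KO-F1, against 0.701 and 0.866 in KO-F2.

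Prm3 differed most from its neighbours in KO-F2. Prm2 to Prm3 was 24.2 and 16.3 in Ctrl-F1, 14.5 and 14.2 in KO-F1, against 59.4 and 37.4 in KO-F2. Prm1 to Prm3 was 7.75 and 4.71, 6.10 and 4.00, and 26.7 and 20.8. Prm3 to Tnp1 was 1.01 and 1.45, 1.29 and 1.93, and 0.211 and 0.324. Thus Prm3 was more counted than Tnp1 in each of the 4 F1 libraries and less counted in both KO-F2 libraries. Prm3 to Tnp2 stood at -1.27 on the log2 scale in KO-F2 against Ctrl-F1 (pooled SD 0.37) and at -1.56 against KO-F1 (pooled SD 0.40).

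Prm2 to Tnp2 was the one ratio that overlapped between the groups in all 3 comparisons. It was 4.87 and 4.72 in Ctrl-F1, 3.47 and 5.17 in KO-F1, against 4.95 and 4.50 in KO-F2. Prm1 to Tnp2 was 1.56 and 1.36, 1.46 and 1.45, and 2.22 and 2.50, so that only the KO-F2 libraries stood apart. The 2 Tnp1 ratios with the protamines were lower in KO-F2 than in any F1 library, with Prm2 to Tnp1 at 12.5 and 12.1 against between 18.7 and 27.5, and Prm1 to Tnp1 at 5.63 and 6.73 against between 6.84 and 7.87.

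Of the 10 ratios between the 5 genes, 2 did not overlap between KO-F1 and Ctrl-F1, 9 between KO-F2 and Ctrl-F1 and 9 between KO-F2 and KO-F1. Among the 1711 ratios between 59 late spermatid transcripts the corresponding shares were 29.5%, 50.7% and 57.8%. The 10 ratios share 5 genes and are not independent. With 2 libraries against 2, a two-sided exact permutation test cannot go below p = 0.333, and adjusted over the 30 tests the smallest value was 0.5. The median absolute log2 difference of the late spermatid ratios was 0.53 between KO-F2 and Ctrl-F1 and its 90th percentile 1.32, so of the ratios given above Prm1 to Prm3 (1.96) and Prm3 to Tnp1 (-2.21) were beyond that percentile, and Tnp1 to Tnp2 was not. Between KO-F2 and KO-F1 the percentile was 1.63, and Prm1 to Prm3 (2.25), Prm2 to Prm3 (1.72) and Prm3 to Tnp1 (-2.59) were beyond it. Between KO-F1 and Ctrl-F1 it was 0.93, and none of the ratios was beyond it.

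**Figure D3:**
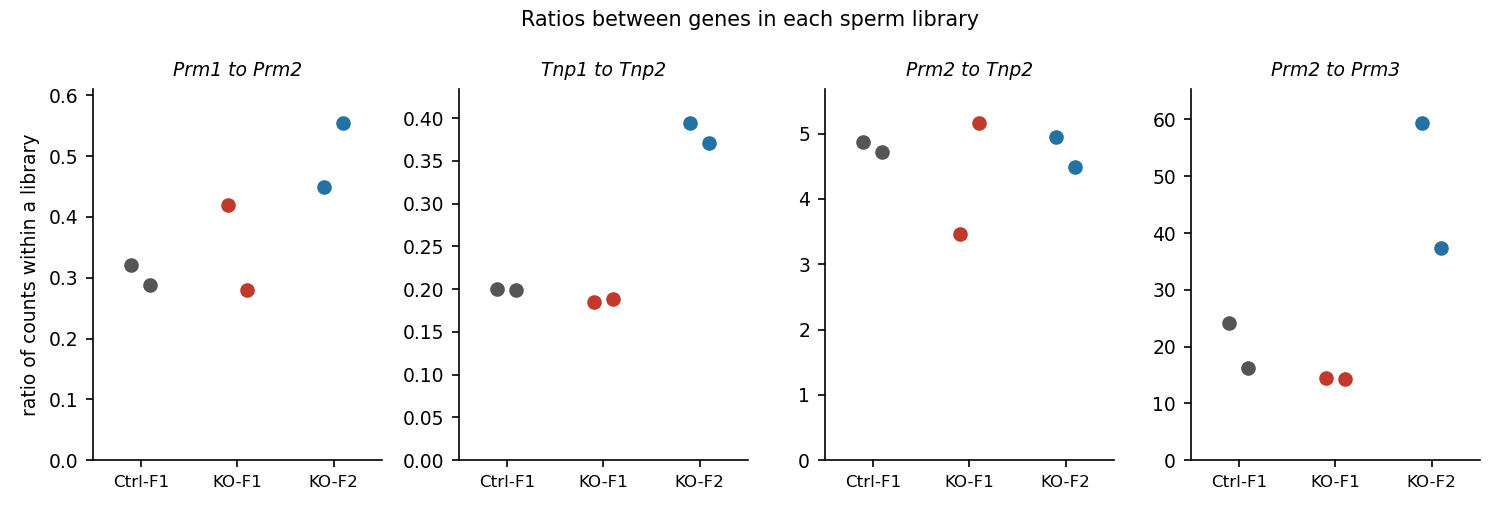
Ratio of counts of 2 genes within each sperm library (linear axes from 0, 1 point per library). Tnp1 to Tnp2 lies between 0.185 and 0.200 in the 4 F1 libraries and at 0.371 and 0.395 in KO-F2, and Prm2 to Tnp2 overlaps between all groups.

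Levels of different genes were compared per kilobase of transcript. In all 4 F1 sperm libraries the order was Prm2, Prm1, Tnp2, Prm3 and Tnp1, and in both KO-F2 libraries Tnp1 stood before Prm3. The order of Prm3 and Tnp1 in Ctrl-F1 replicate 1 rested on a small margin, at 4641 and 4389 CPM per kilobase. As a share of the 5 genes per kilobase, Prm2 made up 53.9% and 54.2% in Ctrl-F1, 46.1% and 55.0% in KO-F1, against 48.2% and 43.9% in KO-F2. Prm1 made up 26.9% and 24.4%, 30.3% and 24.1%, and 33.8% and 38.0%. Tnp2 was between 11.1% and 15.1% in all 6 libraries. Tnp1 was between 2.92% and 3.61% in the F1 libraries and at 5.62% and 5.29% in KO-F2, while Prm3 was between 3.42% and 5.92% in the F1 libraries and at 1.24% and 1.80% in KO-F2. The KO-F1 libraries overlapped with Ctrl-F1 for Prm1, Prm2, Prm3, Tnp1 and Tnp2 alike.

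**Figure D4:**
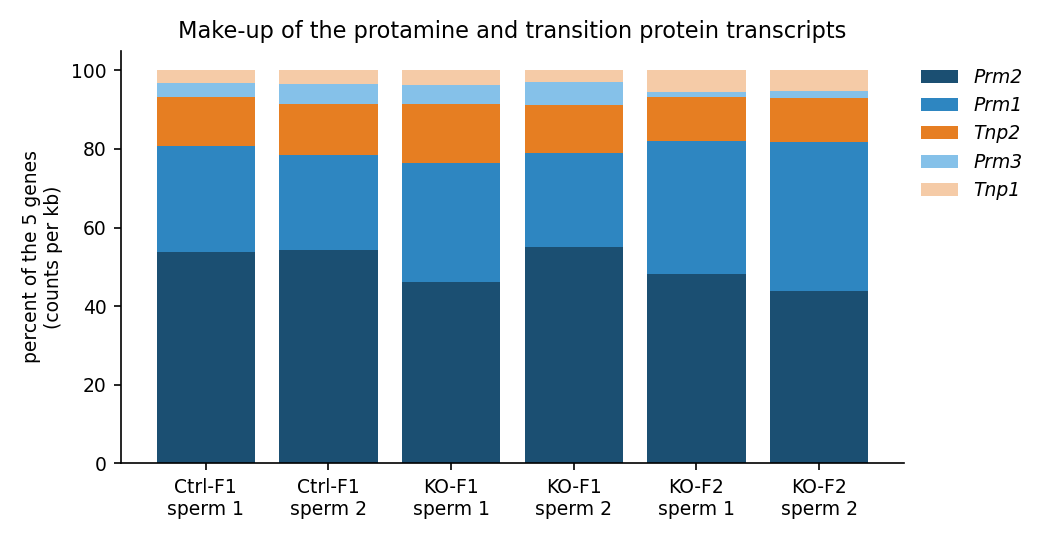
Share of each gene in the summed counts per kilobase of the 5 genes, in percent, for each sperm library. Prm2 is the largest part of every library, and in KO-F2 the Tnp1 part (5.29% and 5.62%) is larger than the Prm3 part (1.24% and 1.80%).

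The 5 genes were set beside 68 other transcripts of late spermatids, which include Smcp of the mitochondrial sheath, the outer dense fibre gene Odf1, Oaz3, an ornithine decarboxylase antizyme of spermatids, and Tcp11 as the 4 most abundant. The share of these 68 genes was 8.52% and 9.68% in the Ctrl-F1 libraries, 4.86% and 3.97% in KO-F1, and 9.57% and 10.3% in KO-F2. For every 100 late spermatid counts there were 86.1 and 41.8 counts of the 5 genes in Ctrl-F1, 40.7 and 33.9 in KO-F1, against 89.4 and 73.4 in KO-F2. The second Ctrl-F1 library thus stood next to the first KO-F1 library, and the difference between Ctrl-F1 and KO-F1 in this measure was smaller than the spread between the Ctrl-F1 replicates. Between KO-F1 and Ctrl-F1, 64 of the 65 late spermatid transcripts tested had a negative log2 fold change, as had 5334 of all 10785 genes tested. Of these 65, edgeR called 0, 53 were lower at an unadjusted p under 0.05 (2105 of all genes in either direction), and DESeq2 called 29 as lower (1.58% of all genes). Smcp was at -1.19 and Odf1 at -1.66. Between KO-F2 and KO-F1, 58 of 67 were higher at an unadjusted p under 0.05 and DESeq2 called 48 as higher (7.48% of all genes). Of the 67, edgeR called 14 higher (2.11% of all genes tested), among them Spata19 (3.85, SE 0.37), Tex37 (3.38, SE 0.42), Fscn3 (3.28, SE 0.41), Hmgb4 (2.98, SE 0.34), Gk2 (2.97, SE 0.36) and Odf2 (2.54, SE 0.37), and besides them Dkkl1, Gapdhs, Gsg1, Spata3, Spata6, Spem1, Theg and Tssk1. None of the 14 was called with the library total as the scale, where edgeR called 0 genes.

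A list of 18 genes of the expression and storage of protamine mRNAs was examined next, of which 16 were tested. Their median log2 fold change was -1.31 in KO-F1 against Ctrl-F1, -0.01 in KO-F2 against Ctrl-F1 and 1.21 in KO-F2 against KO-F1. None was called by edgeR in the comparisons with Ctrl-F1, where 8 were lower in KO-F1 and 1 was higher in KO-F2 at an unadjusted p under 0.05 and DESeq2 called 2 (1.58% of all genes) and 1 (0.798%). In the last comparison edgeR called 3 of the 16 as higher (2.11% of all genes tested), 12 were higher at an unadjusted p under 0.05 (4968 of all 13517 genes in either direction) and DESeq2 called 6 as higher (7.48% of all genes). The edgeR calls were the kinesin gene Kif17 (3.36, SE 0.47, adjusted p = 0.00962), Ddx25, an RNA helicase of spermatids (2.68, SE 0.36, adjusted p = 0.00949), and Pabpc2, a testis poly(A)-binding protein (2.17, SE 0.32, adjusted p = 0.00997). Ybx2, which binds and masks stored spermatid mRNAs, was at 2.57 (SE 0.38, adjusted p = 0.0101), and the general Pabpc1 at 1.08 (SE 0.33, adjusted p = 0.0580). With the library total as the scale edgeR called 0 of all genes in this comparison, so Kif17, Ddx25 and Pabpc2 were not called.

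Of 30 genes of the exchange of histones for protamines, 27 were tested and 0 were called in any of the 3 edgeR comparisons, at medians of -0.56, -0.04 and 0.52. At an unadjusted p under 0.05, 3 were higher and 7 lower in KO-F1 against Ctrl-F1, 2 and 2 in KO-F2 against Ctrl-F1, and 8 and 5 in KO-F2 against KO-F1. Over all genes, in either direction, 2105 of 10785, 1960 of 13149 and 4968 of 13517 passed this cut-off. These all-gene counts hold for the lists below as well. In the same order DESeq2 called 4 lower (1.58% of all genes), 1 higher (0.798%), and 5 higher (7.48%) with 1 lower (3.52%). The 4 most abundant genes of this list did not all point the same way. The kinase gene Tssk6, needed for chromatin condensation in spermatids, was at -1.81 in KO-F1 against Ctrl-F1 and 3.38 in KO-F2 against KO-F1, the linker histone gene H1fnt at -2.05 and 2.31, and Phf7, a histone H2A ubiquitin ligase gene, at -1.74 and 2.07. H3f3b, a gene of the replacement histone H3.3 that is used in most cells, was at 1.09 and -1.14.

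Genes on either side of the 2 loci were examined as well. Of 10 genes around the cluster, 7 to 9 were tested and edgeR called 0, at medians of -0.10, 0.59 and 0.25. In the 3 comparisons 1, 2 and 3 were higher at an unadjusted p under 0.05, and DESeq2 called 0, 0 and 2 as higher (0.744%, 0.798% and 7.48% of all genes). Their most abundant member, Snn, was at -1.01, 1.23 and 2.37, and Litaf at 1.30, 0.59 and -0.58. Of 7 genes near Tnp1, 4 to 6 were tested, and edgeR called 1: the ribosomal protein gene Rpl37a, which rose in KO-F2 against KO-F1 (3.87, SE 0.52, adjusted p = 0.00954), where 2.11% of all genes were called higher. Rpl37a and Ankar did not pass the count filter in KO-F1 against Ctrl-F1. They were tested only in comparisons that include the deeper KO-F2 libraries, so the Rpl37a call depends on that filter. At an unadjusted p under 0.05, 0 differed in KO-F1 against Ctrl-F1, and 3 were higher and 1 lower in each comparison with KO-F2. DESeq2 called 0 in KO-F1 against Ctrl-F1, 1 higher and 1 lower in KO-F2 against Ctrl-F1 (0.798% and 0.685% of all genes), and 3 higher in KO-F2 against KO-F1 (7.48%). Rpl37a and Tns1 (2.18, SE 0.71, adjusted p = 0.0702) are expressed in many cell types. In KO-F2 against KO-F1, Igfbp5 was at 2.34 (SE 1.12, adjusted p = 0.177 in edgeR) and Ankar at 2.95 (SE 0.65, adjusted p = 0.0242).

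Across the 6 sperm libraries, Prm1, Prm2, Tnp1 and Tnp2 went together, with Pearson correlations of log2(TMM CPM + 1) between 0.957 and 0.996, whereas Prm3 correlated with them between 0.546 and 0.737. Among 973 genes with a mean of at least 100 CPM, those most like the mean of the 5 genes were 1700019M22Rik (r = 0.997), 4930471G03Rik (0.996), Elof1 (0.996), the sperm glycolysis gene Gapdhs (0.995) and Fabp9 (0.991). These values describe 6 libraries in 3 groups that also differ in depth and composition. Gapdhs stood at 707 and 451 TMM CPM in Ctrl-F1, 136 and 87.9 in KO-F1, against 637 and 553 in KO-F2.

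Markers of other cells in the epididymis also differed between the libraries. Of 22 leukocyte genes, Cd52 alone, which the epididymal epithelium also makes, amounted to 0.672% and 0.239% of the Ctrl-F1 libraries, 3.07% and 1.21% in KO-F1 and 0.303% and 0.141% in KO-F2. The other 21 leukocyte genes took between 0.0544% and 0.105% in the 4 F1 libraries and 0.510% and 0.635% in KO-F2. In KO-F2 against KO-F1, 11 of 21 leukocyte genes tested were called higher by edgeR (2.11% of all genes tested) and 15 by DESeq2 (7.48% of all genes), which called 1 lower (3.52%), with edgeR calls that include the macrophage gene Lyz2 (4.58, SE 0.53), the antigen presentation gene Cd74 (3.28, SE 0.45) and the pan-leukocyte gene Ptprc (4.89, SE 0.64). In KO-F1 against Ctrl-F1 only 13 of the 22 passed the count filter. Some of the 21 were thus tested only in comparisons with the deeper KO-F2 libraries, and the number of edgeR calls depends on that filter. In KO-F2 against Ctrl-F1 edgeR called 0 of 21, while 12 were higher at an unadjusted p under 0.05 and DESeq2 called 10 higher (0.798% of all genes). The 30 epididymal epithelium genes, led by Crisp1, took 2.29% and 0.795% in Ctrl-F1, 1.69% and 1.68% in KO-F1, against 0.434% and 0.236% in KO-F2. Without Crisp1 the other 29 took 0.465% and 0.251% in the Ctrl-F1 libraries, 0.763% and 0.524% in KO-F1, and 0.148% and 0.110% in KO-F2, so that both KO-F1 libraries lay above both Ctrl-F1 libraries. Of the 22 tested in KO-F1 against Ctrl-F1, edgeR called 0, 5 were higher and 1 lower at an unadjusted p under 0.05, and DESeq2 called 1 higher (0.744% of all genes). Of the 25 tested in KO-F2 against Ctrl-F1, edgeR called 0, and 2 were higher and 8 lower at an unadjusted p under 0.05. In that comparison DESeq2 called 1 higher (0.798% of all genes) and 7 lower (0.685%). Of the 26 tested in KO-F2 against KO-F1, edgeR called 1, Ly6d, which was higher in KO-F2 (adjusted p = 0.00911), and DESeq2 called 2 higher (7.48% of all genes) and 11 lower (3.52%). Between 4 and 7 of the 21 leukocyte genes and 4 or 5 of the 30 epididymal genes were at 0 in an F1 library. In the deeper KO-F2 libraries 0 of the leukocyte genes and at most 1 of the epididymal genes were at 0. The part of these cells in the levels of the 5 genes was not tested, and in bulk RNA fewer cells of a type and less RNA per cell cannot be told apart.

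Other marker lists were low in the sperm libraries. The 15 spermatocyte and spermatogonia genes took at most 0.0130%, in Ctrl-F1 replicate 1, and at least 0.00587%, in KO-F1 replicate 1. In KO-F1 against Ctrl-F1, 7 of the 7 tested had a negative log2 fold change, as had 5334 of all 10785 genes. Of these 7, 2 were lower at an unadjusted p under 0.05, and edgeR and DESeq2 called 0. The median of this list was -1.40 there, -0.77 in KO-F2 against Ctrl-F1 and 0.82 in KO-F2 against KO-F1. The 10 Sertoli and Leydig cell genes took between 0.0116% and 0.101%, most of it Clu, which the epididymis also expresses. Of this list 2 were tested in KO-F1 against Ctrl-F1, with Sox9 at 9.54 (SE 1.33, adjusted p = 0.140 in edgeR) and Clu at -1.01. In Ctrl-F1 replicate 2 all 360 counts of the list were Clu, so Sox9 had 0 counts there. The 9.54, the highest of all genes tested, is therefore not a measured fold. DESeq2 called 1 of the list higher in KO-F1 against Ctrl-F1 (0.744% of all genes). The 10 hepatocyte genes had at most 58 counts. The 4 erythroid genes had between 2 and 22 counts in the F1 libraries and 251 and 3613 in KO-F2, with the heme synthesis gene Alas2 at the top in each. In KO-F2, Alas2 alone had 251 and 3603 of these counts. The globin genes Hba-a1 and Hba-a2 had 0 counts in the sperm libraries.

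**Figure D5:**
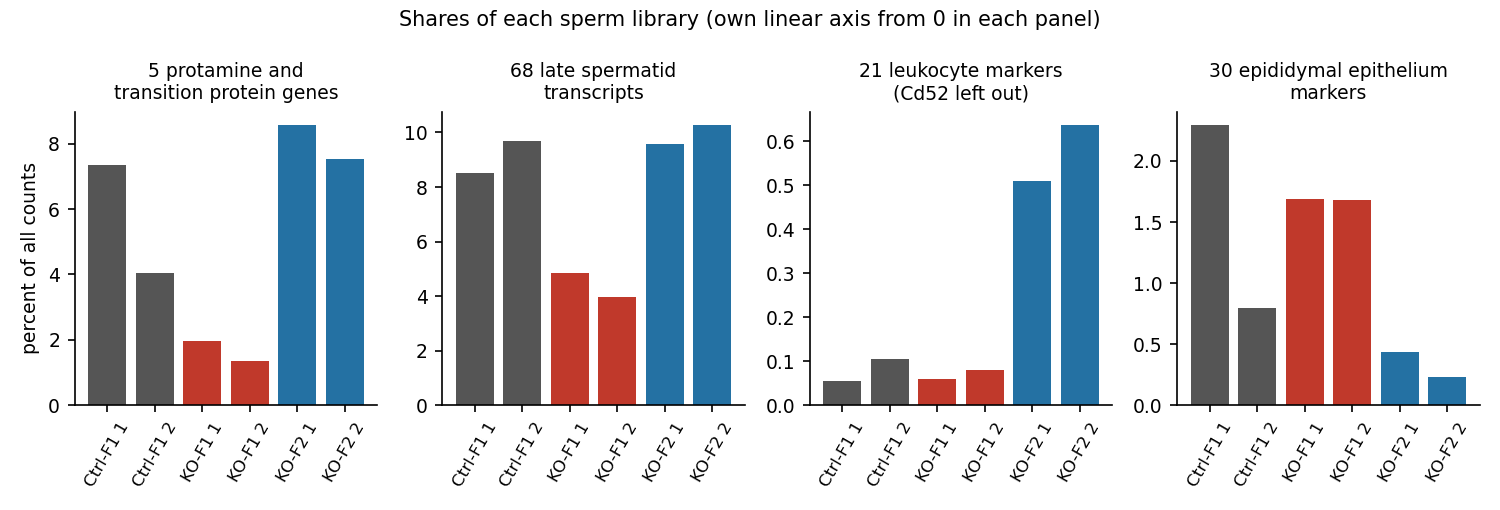
Percent of all counts taken by the 5 genes, the 68 late spermatid transcripts, 21 leukocyte markers without Cd52 and 30 epididymal epithelium markers in each sperm library (linear axes from 0, different in each panel). The 5 genes and the late spermatid transcripts are lowest in both KO-F1 libraries, and the leukocyte markers are highest in both KO-F2 libraries (0.510% and 0.635%).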

How the data were processed

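The values are raw read counts per gene symbol, which the authors deposited as 1 file per library. Per the methods of the study, single-end reads of 75 bp were aligned to GRCm38/mm10 with Hisat2 2.1.0 and unique alignments were counted with featureCounts. The annotation and the strand setting are not given in the sources used here. Sperm libraries came from PCR-amplified cDNA, so every interval covers counting error only. Symbols listed more than once (2 symbols, 4 lines) were left out. The ChIP-seq and embryo samples were not analysed here.

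Pairs of sperm groups were fitted over all genes with edgeR 4.0.16 (TMM, filterByExpr with a minimum count of 10, quasi-likelihood F test, Benjamini-Hochberg adjustment) in R 4.3.3. DESeq2 1.42.0 was an alternative. Others were its size factors, the library total, scaling to late spermatid transcripts, leaving out Rn45s and Lars2, no filter, 10 counts in every library, 3 groups in 1 model, a replicate block, an adjusted p under 0.05, thinned counts and leaving out each replicate. The gene rule named all 5 genes, the 4 most abundant and the called genes of the lists of late spermatid, storage, exchange and neighbouring genes, and the 5 genes most alike. It did not cover the marker lists of other cells. The lists hold general marker genes. Members and lists were chosen with earlier results of these data known. The marker genes named from those lists were chosen after their values were seen. The labels give only numbers for replicates, so p-values measure the spread between these samples. The fits were tested on simulated data, in which edgeR at these thresholds called none of the genes changed 4-fold and DESeq2 called some of them. Of the genes changed 16-fold both called some. DESeq2 also called some unchanged genes in both settings, and edgeR did so at 16-fold only. A missing call among the 5 genes therefore does not show equal levels, and DESeq2 calls may include unchanged genes.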

Additional observations from a re-analysis of the deposited data

Results flagged for a closer look

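Tnp1 was called higher in KO-F2 than in KO-F1 spermatozoa by edgeR, at a log2 fold change of 3.46. It was not called with the library total as the scale (adjusted p = 0.0150) or with scaling to late spermatid transcripts (1.22, adjusted p = 0.0580), and the generation cannot be told apart from the run, the strain background and the depth. Prm1 lay on opposite sides of Ctrl-F1 in the 2 KO groups, below both Ctrl-F1 libraries in both KO-F1 libraries and above them in both KO-F2 libraries. Tnp1 did so as well. The share of all genes that did both was not computed. Singly, 25.4% of all genes tested lay below Ctrl-F1 in KO-F1, and 27.8% of the genes compared lay above it in KO-F2. The log2 fold change of Prm1 between KO-F2 and KO-F1 was 3.11, and the edgeR test of this difference missed the threshold (adjusted p = 0.0110). Nor did edgeR call Prm1 with DESeq2 size factors, the library total, 3 groups in 1 model or scaling to late spermatid transcripts (0.88, adjusted p = 0.231). It was called without Rn45s and Lars2, without a filter and with at least 10 counts in every library. A replicate block, thinned counts and an adjusted p under 0.05 also gave a call, as did DESeq2 (adjusted p = 4.03e-16). Without 1 library, 1 group held a single library and the other alone gave the spread. In those fits only the log2 fold change of Prm1 is given, between 2.72 and 3.52. The ratio of Prm2 to Prm3 was likewise below both Ctrl-F1 libraries in KO-F1 and above both in KO-F2, 1.72 apart on the log2 scale, and so was the ratio of Tnp1 to Tnp2, 1.03 apart. For Tnp1 to Tnp2 the difference between KO-F1 and Ctrl-F1 was small (-0.10) and was not set against counting error. Among the ratios of late spermatid transcripts, 29.5% did not overlap between KO-F1 and Ctrl-F1 and 50.7% between KO-F2 and Ctrl-F1. The two-sided exact permutation test of Prm2 to Prm3 and of Tnp1 to Tnp2 between KO-F2 and KO-F1 gave p = 0.333 each, the smallest that 2 libraries against 2 allow.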

How the results depend on the processing

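Genes called in KO-F1 against Ctrl-F1 spermatozoa numbered 0, and 390 with DESeq2, 113 without a filter and 200 with at least 10 counts in every library. Of the 5 genes these settings called 5, 1 and 1 as lower (Tnp1 in both of the latter, where 0.286% and 1.89% of all genes were called lower). No other setting with all libraries called any. In KO-F2 against Ctrl-F1 the count of 0 genes became 277 with DESeq2, 39 without a filter, 1 with at least 10 counts in every library and 2 with all 3 groups in 1 model, and with 1 library left out between 35 and 277 (103 without Ctrl-F1 replicate 1, 277 without Ctrl-F1 replicate 2, 75 without KO-F2 replicate 1 and 35 without KO-F2 replicate 2). In KO-F2 against KO-F1 the 312 genes became 2058 with DESeq2, 0 with the library total, 4515 with scaling to late spermatid transcripts (36 higher and 4479 lower), 536 without Rn45s and Lars2, 2552 without a filter, 1805 with at least 10 counts, 198 with 3 groups in 1 model, 2759 at an adjusted p under 0.05 and 1444 on thinned counts, and between 230 and 2898 without 1 library (1551 without KO-F1 replicate 1, 2898 without KO-F1 replicate 2, 230 without KO-F2 replicate 1 and 348 without KO-F2 replicate 2). The 1 call among the 5 genes there (Tnp1) became 4 with DESeq2, without a filter (9.84% of all genes called higher) and with at least 10 counts (14.7% higher). It was also 4 at an adjusted p under 0.05 (14.2%) and on thinned counts (10.7%). Without Rn45s and Lars2 it was 2 (3.34%), and it was 0 with the library total and with scaling to late spermatid transcripts. The number of genes called also moved in some fits without 1 library, in both comparisons with KO-F2. Each fit without 1 library compared 1 library with 2, and the group of 2 alone gave the spread, so calls are not given for these fits. In them the log2 fold change of Tnp1 in KO-F2 against KO-F1 was between 3.08 and 3.85. The cause of these shifts was not tested.

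With scaling to late spermatid transcripts the log2 fold changes of Prm2 and Tnp2 in KO-F2 against Ctrl-F1 turned to -0.083 and -0.055 and that of Prm3 in KO-F2 against KO-F1 to -1.27. This scaling moved the median of all genes to 1.71, -0.21 and -2.08 in the 3 comparisons, and the library total to 0.46, 0.23 and -0.30. Without Ctrl-F1 replicate 2, Prm2 was at -0.045 and Tnp2 at -0.0045 in KO-F2 against Ctrl-F1, within ranges over left-out libraries of -0.045 to 0.57 and -0.0045 to 0.57.

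Same-numbered libraries share only a number, and their deviations correlated at -0.008, 0.15 and 0.05. With a replicate block 0, 362 and 819 genes were called, and 0, 2 (Prm3 lower, Tnp1 higher) and 4 of the 5. The shares of all genes called were 1.64% higher and 1.12% lower in KO-F2 against Ctrl-F1 and 4.92% higher in KO-F2 against KO-F1. The lowest sperm count of any of the 5 genes was 645, for Tnp1 in KO-F1 replicate 2.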
